A study of Mus musculus with 6 samples.

Results

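The calcification inhibitors and osteogenic genes described here are Mgp, Spp1, Enpp1, Ank, Alpl, Phospho1, Runx2, Sp7, Ibsp and Bglap. They were picked out of the gene table by symbol, with earlier results of these data known, and make up 10 of the 46983 genes in the gene table. Aortic valve RNA of wild type C57BL/6J mice was sequenced at 2 ages, postnatal day 2 (PND2) and 4 months, with no treatment or engineered allele at either. There were 3 libraries per age, named replicates 1, 2 and 3, and each was made from the pooled valves of 5 to 6 mice, so the spread between libraries is a spread between pools and not between single animals. Library totals ran from 23810507 to 38994657. Expression is given as RPKM, reads scaled by the exonic length of the gene and by the library total, and means are given ± SD over 3 libraries.

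Soft tissues are kept free of mineral by inhibitors that act outside the cell. Inorganic pyrophosphate blocks the growth of hydroxyapatite. Enpp1, an ectoenzyme, makes pyrophosphate from ATP, while the release of pyrophosphate from inside the cell needs Ank. Tissue-nonspecific alkaline phosphatase (Alpl) removes pyrophosphate while freeing phosphate. Matrix Gla protein (Mgp) and osteopontin (Spp1) bind calcium or mineral in the matrix, whereas the transcription factors Runx2 and Sp7 drive the osteoblast program whose late products include bone sialoprotein (Ibsp) and osteocalcin (Bglap). Calcification of the aortic valve is known for the appearance of such bone genes in valve interstitial cells.

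Of the 10 genes, 9 were expressed at a higher level at 4 months than at PND2 and none at a lower level at an adjusted p under 0.05 (limma on log2(RPKM + 0.1), Benjamini-Hochberg adjustment over the 25903 genes that reached 0.1 RPKM in 3 libraries). Among all genes tested, 14.7% were higher and 21.1% were lower at 4 months by the same rule. Bglap was the gene that did not pass. All 10 entered the test, but Ibsp had no reads at PND2 and entered only through its 4-month libraries. It therefore had to differ, and its place among the 9 is no support. With an unequal-variance test per gene 2 of the 10 passed (Mgp and Runx2), beside 13.2% of all genes in either direction. With no filter on low values 5 passed, beside 13.3% of all genes. The median log2 fold change of the 10 was 1.51, also with Ibsp placed at its lower bound, beside -0.14 over all genes tested. Scaling each library to its median moved the median of all genes to -0.02 and the split of calls from 3810 higher and 5463 lower to 4601 higher and 4129 lower. In 9 of the 10 genes every 4-month library lay above every PND2 library, which held for 20.0% of all genes tested. Ibsp, which had to separate in this way, is among these 9. In valve tissue as a whole, a change in the number of cells of a type and a change in the RNA of each cell cannot be told apart.

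**Figure D1:**
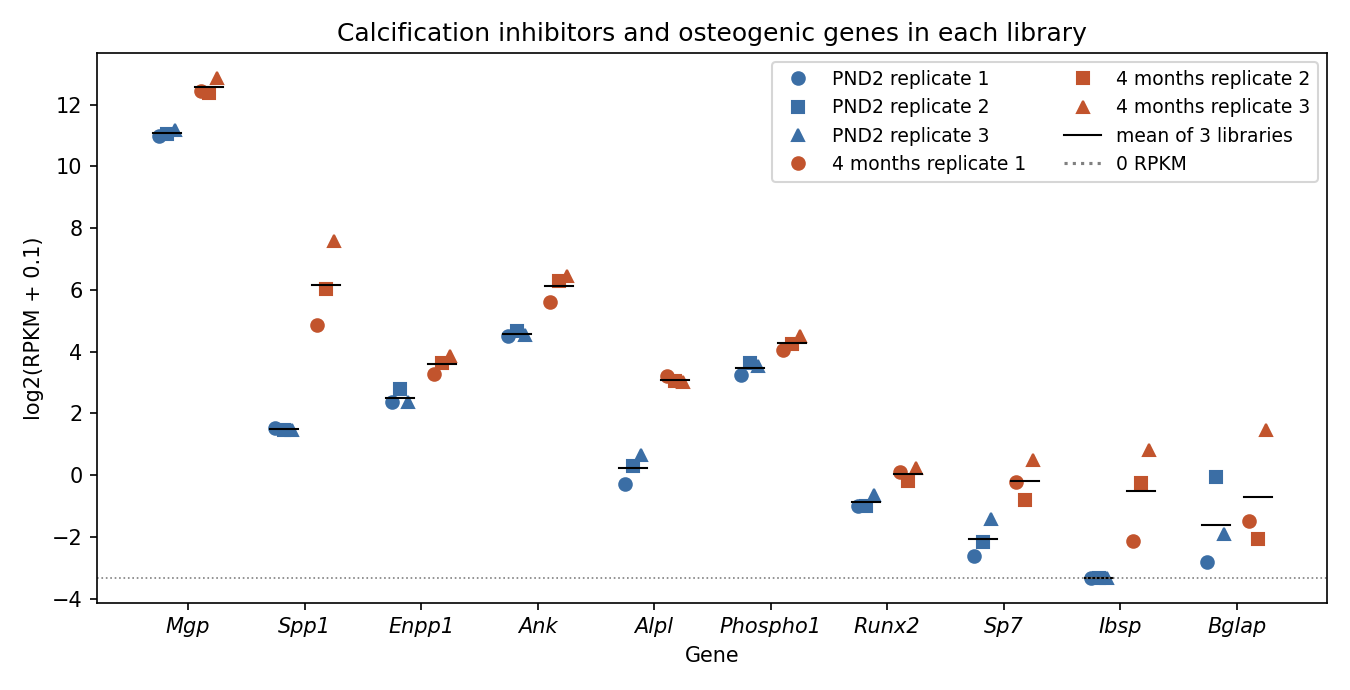
Each point is 1 library, with age by color and replicate by marker shape, on a vertical axis of log2(RPKM + 0.1); black bars are means of 3 libraries and the dotted line is 0 RPKM. The ages separate in every gene except Bglap, and 4 months replicate 3 is the highest 4-month library in every gene except Alpl.

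Windows of 250 bases upstream of the annotated starts were taken from RefSeq (GRCm38.p6) to show the sequence before those starts. An annotated start need not be one used in these libraries, as the reads of Runx2 given below show. Of the 10 genes, 8 had an entry, with 10 entries in all, and Mgp and Sp7 are named only. The core motif bound by RUNX factors (TGTGGT, or ACCACA on the other strand, both strands searched) was present in 4 of the 10 entries, those of Bglap, Spp1, Enpp1 and Runx2, and in 14.0% of the 32851 entries of the same length. The TATA box (TATAAA, on the strand of the gene) was present in 2 of the 10, those of Bglap and Spp1, and in 7.59% of all entries. The motifs do not overlap each other. The sequences below run 5′ to 3′ along each gene and end at the base before its start, with both motifs in capitals. They are shown because they hold the binding motif of Runx2, 1 of the 10 genes measured. A match is a string of letters and was not tested as a binding site.
Bglap, chr3:88384467-88384716, minus strand: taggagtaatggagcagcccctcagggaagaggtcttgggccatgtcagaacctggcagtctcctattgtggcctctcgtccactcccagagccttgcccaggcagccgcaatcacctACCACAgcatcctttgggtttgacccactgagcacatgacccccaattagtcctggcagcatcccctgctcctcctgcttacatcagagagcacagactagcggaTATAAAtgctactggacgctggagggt
Spp1, chr5:104434861-104435110, plus strand: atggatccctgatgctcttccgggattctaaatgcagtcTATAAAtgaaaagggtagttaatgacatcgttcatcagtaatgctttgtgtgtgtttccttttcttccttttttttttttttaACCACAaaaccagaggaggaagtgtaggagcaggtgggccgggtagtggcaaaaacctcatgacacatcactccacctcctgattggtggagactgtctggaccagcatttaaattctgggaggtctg
Runx2, chr17:44814628-44814877, minus strand: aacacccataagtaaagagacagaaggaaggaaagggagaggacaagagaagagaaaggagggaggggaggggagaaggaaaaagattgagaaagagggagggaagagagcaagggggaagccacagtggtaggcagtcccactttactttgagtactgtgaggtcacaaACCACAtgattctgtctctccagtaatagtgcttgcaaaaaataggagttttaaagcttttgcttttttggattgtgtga
Enpp1, chr10:24712160-24712409, minus strand: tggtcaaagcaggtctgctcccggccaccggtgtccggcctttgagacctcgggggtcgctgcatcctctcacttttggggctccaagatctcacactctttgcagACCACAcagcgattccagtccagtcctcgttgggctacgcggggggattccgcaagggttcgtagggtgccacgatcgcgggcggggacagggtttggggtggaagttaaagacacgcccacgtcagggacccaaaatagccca
In Bglap the RUNX motif begins 132 bases and the TATA box 27 bases before the start. The RUNX motif begins 128 bases before the start in Spp1, 80 in Runx2 and 144 in Enpp1, and the TATA box of Spp1 lies 211 bases before its start. Expression of these 4 genes is described below with their roles, and no peak, methylation or binding data bear on the windows.

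Mgp, the vitamin K-dependent inhibitor of soft tissue calcification (chr6:136872435-136875823), was by far the most abundant of the 10. Its RPKM was 2039, 2139 and 2336 at PND2 and 5548, 5279 and 7441 at 4 months. The 3 pools of each age lay close together and the ages did not overlap. Mgp rose 2.80-fold, from 2171 ± 151 to 6089 ± 1178 RPKM (log2 fold change 1.47, SE 0.21, limma adjusted p = 0.00208). The call was lost when no filter on low values was applied (adjusted p = 0.333), with an unchanged log2 fold change and an SE of 0.73. By mean RPKM Mgp ranked 10 among nuclear protein-coding genes at PND2 and 2 at 4 months. Its reads made up 0.242 to 0.277% of the library total at PND2 and 0.627 to 0.883% at 4 months.

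Spp1, a secreted acidic phosphoprotein that binds mineral and integrins (chr5:104435118-104441050), showed the largest fold change of the 9 that passed, leaving aside Ibsp, whose ratio has only a lower bound. Its RPKM was 2.77, 2.66 and 2.63 at PND2 and 29.0, 64.5 and 192 at 4 months. The PND2 pools were almost alike, while the 4-month pools differed widely from each other. Spp1 rose 35.4-fold, from 2.69 ± 0.0714 to 95.3 ± 85.9 RPKM (log2 fold change 4.68, SE 0.59, adjusted p = 0.00128). Without 4 months replicate 3 the ratio of means was 17.4-fold and the log2 fold change 3.96, and without 4 months replicate 1 the log2 fold change was 5.32. Another annotated gene, Gm42793, overlaps Spp1 on the same strand and went from a mean of 0.0785 to 3.84 RPKM, and reads within it may be counted at both.

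Enpp1, the ectoenzyme that makes pyrophosphate from ATP (chr10:24637914-24712159), had an RPKM of 5.04, 6.73 and 5.03 at PND2 and 9.63, 12.2 and 14.5 at 4 months. All 4-month pools stood above all PND2 pools. Enpp1 rose 2.16-fold, from 5.60 ± 0.981 to 12.1 ± 2.42 RPKM (log2 fold change 1.09, SE 0.20, adjusted p = 0.00519). Ank, the transmembrane protein needed to bring pyrophosphate out of the cell (chr15:27466677-27594909), had an RPKM of 22.6, 25.2 and 23.3 at PND2 and of 49.1, 78.3 and 86.8 at 4 months. Replicate 1 was the lowest of the 4-month pools and still lay well above PND2. Ank rose 3.01-fold, from 23.7 ± 1.32 to 71.4 ± 19.8 RPKM (log2 fold change 1.55, SE 0.20, adjusted p = 0.00154).

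The enzymes that free phosphate were also higher at 4 months. Alpl (chr4:137741733-137796384) had an RPKM of 0.719, 1.13 and 1.47 at PND2 and of 9.07, 8.14 and 8.0 at 4 months. It was low in every PND2 pool and even across the 4-month pools, and it was the only gene of the 10 whose highest 4-month value was not in replicate 3. Alpl rose 7.61-fold, from 1.10 ± 0.374 to 8.41 ± 0.583 RPKM (log2 fold change 2.87, SE 0.26, adjusted p = 0.000337). Phospho1, a phosphatase that releases phosphate from phospholipid head groups inside matrix vesicles (chr11:95824499-95832140), had an RPKM of 9.26, 12.3 and 11.6 at PND2 and of 16.5, 18.8 and 22.8 at 4 months. The ages did not overlap, and the difference was the smallest of the 9 that passed. Phospho1 rose 1.75-fold, from 11.0 ± 1.59 to 19.4 ± 3.19 RPKM (log2 fold change 0.80, SE 0.16, adjusted p = 0.00872). Its span overlaps Zfp652 on the same strand and Abi3 on the opposite strand, whose means were 9.40 and 9.80 RPKM at PND2 and 11.0 RPKM each at 4 months, so its level is uncertain.

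Because Alpl removes what Enpp1 makes, the ratio of their RPKM was taken in each library. The ratio was 0.143, 0.168 and 0.291 at PND2 and 0.942, 0.669 and 0.553 at 4 months. Every 4-month ratio was above every PND2 ratio, though Enpp1 remained the more abundant transcript in all 6 libraries. The mean went from 0.201 ± 0.0797 to 0.721 ± 0.200, a difference of 1.78 in log2(RPKM + 0.1) terms. The 2-sided exact permutation test gave p = 0.1, which is the smallest that 3 libraries against 3 can give.

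Runx2, the transcription factor that starts osteoblast differentiation (chr17:44495987-44814797), was near 1 RPKM or lower throughout. Its RPKM was 0.395, 0.397 and 0.541 at PND2 and 0.976, 0.779 and 1.07 at 4 months. The ages did not overlap. The increase from 0.444 ± 0.0841 to 0.942 ± 0.149 RPKM was 2.12-fold (log2 fold change 0.94, SE 0.28, adjusted p = 0.0383). The call was lost whichever of the 6 libraries was left out, with adjusted p from 0.0580 to 0.116. Runx2 overlaps Supt3 and the noncoding genes Runx2os1, Runx2os2 and Runx2os3 on the opposite strand, so reads may be shared. The annotated exon at its distal start, chr17:44814457-44814627, which follows the promoter window printed above, held no reads in 5 libraries and 1 read in 4 months replicate 3.

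Sp7 (osterix), which acts after Runx2 in bone formation (chr15:102356609-102366325), rested on few reads. It had 7, 11 and 23 reads at PND2, or 0.0618, 0.124 and 0.270 RPKM, and 81, 33 and 109 reads at 4 months, or 0.746, 0.477 and 1.30 RPKM. The lowest 4-month pool was above the highest PND2 pool. Sp7 rose from 0.152 ± 0.107 to 0.840 ± 0.417 RPKM, 5.52-fold (log2 fold change 1.89, SE 0.47, adjusted p = 0.0193). Without 4 months replicate 3 the adjusted p was 0.0658, and without PND2 replicate 1 or 2 it was 0.0515 and 0.0519. The ratio of means was 9.04 without PND2 replicate 3.

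Ibsp, an acidic matrix protein that nucleates mineral and marks osteoblasts (chr5:104299171-104311469), had no reads in any PND2 library. At 4 months it had 10, 36 and 98 reads, or 0.129, 0.731 and 1.64 RPKM. The transcript was present in all the 4-month pools at levels that differed widely between them. Setting each PND2 library at 3 reads, the floor for a count of 0, Ibsp was at least 18.6-fold higher at 4 months, and at least 9.61-fold higher without replicate 3. The fitted adjusted p was 0.0204, and it was over 0.05 in 5 of the 6 fits with 1 library left out (up to 0.0621), all except the one without 4 months replicate 1.

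Bglap, the vitamin K-dependent osteocalcin of mature osteoblasts (chr3:88383501-88384464), had 1, 16 and 3 reads at PND2 and 6, 2 and 47 reads at 4 months. The corresponding RPKM was 0.0415, 0.848 and 0.166, then 0.260, 0.136 and 2.63. The ages overlapped, with PND2 replicate 2 above 2 of the 4-month pools. The log2 fold change was 0.90, with a 95% confidence interval of -1.55 to 3.35 (adjusted p = 0.544), and it was -0.18 without 4 months replicate 3, 0.29 without PND2 replicate 1, 1.66 without PND2 replicate 2 and 1.59 without 4 months replicate 2. Bglap2 and Bglap3 are near-identical copies of Bglap, and the counting could split or share reads among them. Bglap2 had 0, 0.209 and 0.145 RPKM at PND2 and 1.14, 0.446 and 4.69 RPKM at 4 months (log2 fold change 2.91, SE 0.82, adjusted p = 0.0293), a call lost without PND2 replicate 1 or 3 or 4 months replicate 1 or 3 (adjusted p up to 0.0829). Its log2 fold change was 2.07 without 4 months replicate 3 and 3.63 without 4 months replicate 2. Bglap3 did not exceed 0.289 RPKM and was not tested.

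**Figure D2:**
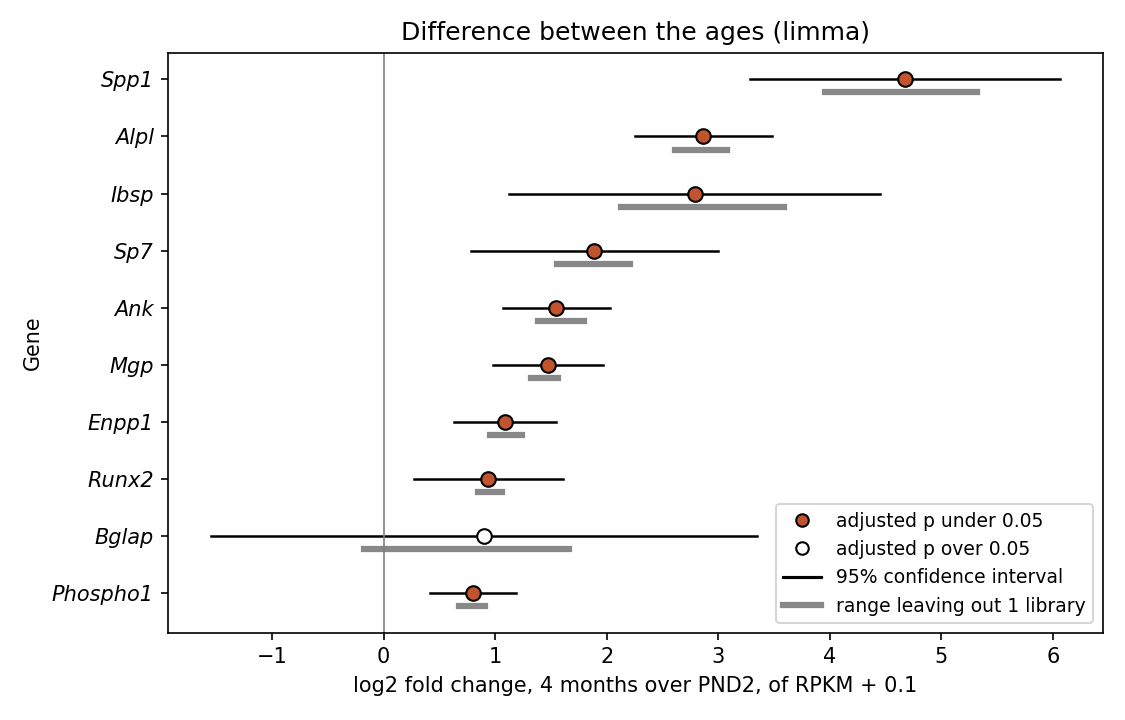
Points are limma log2 fold changes of RPKM + 0.1 at 4 months over PND2, filled where the adjusted p is under 0.05; thin lines are 95% confidence intervals and gray bars the range when 1 library is left out. Only the interval of Bglap, from -1.55 to 3.35, spans 0.

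Exons were compared in the same way to see whether a difference was present along each gene. Of the 153 annotated exons of the 10 genes, 102 reached 1 RPKM in 3 libraries, and 74 of these were higher and none lower at 4 months (limma, adjusted over 249619 exons). The same rule called 9.19% of all exons tested higher. All 102 had a positive log2 fold change. Some exons of Spp1, Alpl and Runx2 were under 1 RPKM in every PND2 library, such as chr5:104436192-104436442 in Spp1 and chr4:137747759-137747828 in Alpl. They met the filter through the 4-month libraries alone, so they had to be higher. Their place in the counts above and in those by gene below is no support. Annotated exons of a gene overlap and share reads, so they are not replicates. For Mgp (6 of 6), Spp1 (20 of 20) and Ank (14 of 14) all tested exons passed, and for Alpl 15 of 17, Enpp1 15 of 34 and Phospho1 4 of 7 did. The exons of Mgp differed little among themselves, with log2 fold changes from 1.42 to 1.53. In Spp1 the exon at chr5:104436541-104436576 had 0, 2 and 0 reads at PND2 and 42, 106 and 373 at 4 months. For Runx2, 4 exons were tested and none passed, with log2 fold changes from 0.33 to 0.99, while 1 of these, chr17:44604001-44608383, carried 87 to 120 reads at PND2 and 141 to 281 at 4 months. No exon of Sp7, Ibsp or Bglap reached 1 RPKM in 3 libraries.

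**Figure D3:**
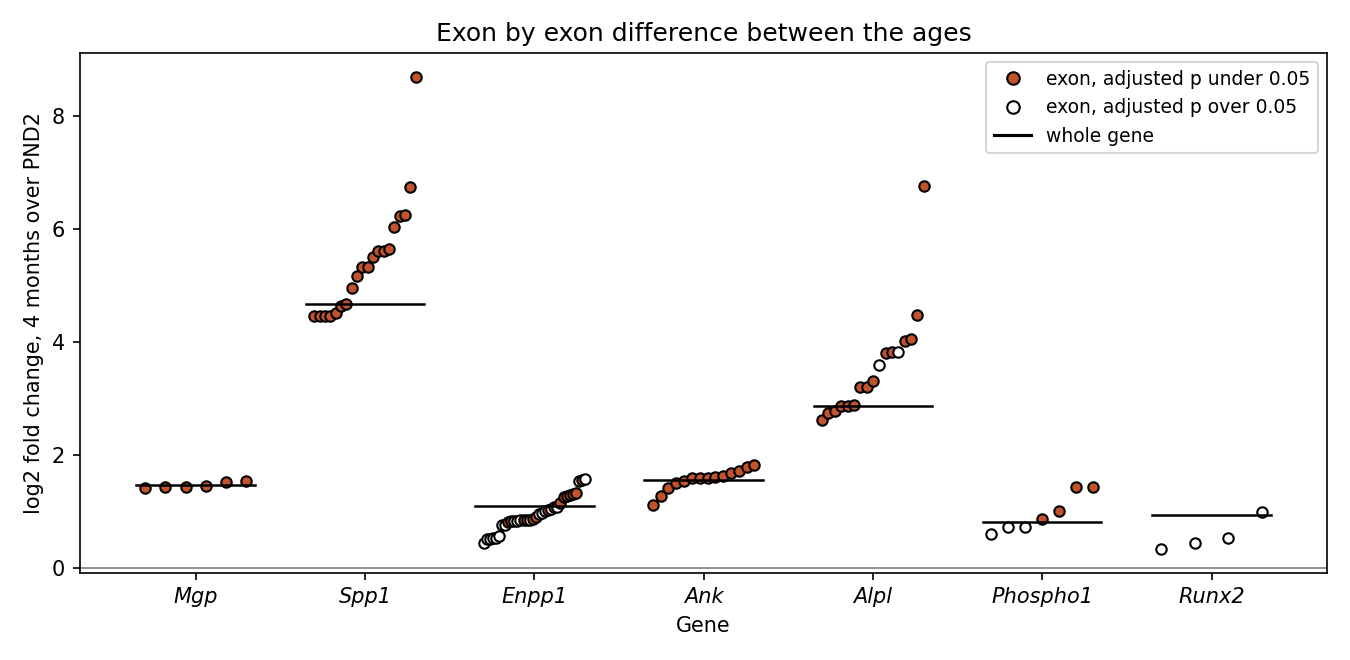
Each point is 1 tested exon of the gene named on the horizontal axis, ordered by its limma log2 fold change at 4 months over PND2, which the vertical axis shows; filled points passed an adjusted p of 0.05 and the bar is the whole gene. All 102 exons lie above 0, closely grouped in Mgp and widely spread in Spp1 and Alpl. Some exons of Spp1, Alpl and Runx2 met the filter through the 4-month libraries alone and so had to lie above 0.

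Variation among the 4-month pools followed a pattern that was noticed after the values were seen. Of the 10 genes, 9 had their highest 4-month value in replicate 3, as did 25.4% of all genes tested. In Spp1, Ibsp and Bglap the value of replicate 3 was over 2 times that of either other pool, which held for 2.19% of all genes tested. By that measure replicate 3 did not stand apart over the whole transcriptome, since replicates 1 and 2 of 4 months exceeded both other pools as far in 4.11% and 2.48% of genes. Without 4 months replicate 3, 6 of the 10 genes still passed, and Runx2, Sp7 and Ibsp did not.

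Other bone genes followed replicate 3 in part. Of 13 tested genes of osteoblasts and osteocytes 8 had their highest 4-month value there, 4 in replicate 1 and 1 in replicate 2. In 2 of them, Bglap2 and Tnn, replicate 3 was over 2 times either other pool. Omd (osteomodulin), Phex, Sost and Col13a1 of that list had their lowest 4-month value in replicate 3, as did Alpl. Replicate 3 was also the highest 4-month pool for 9 of 15 partners of Runx2 and 6 of 10 valve interstitial markers. Among cartilage markers, many were high in the same pool as Spp1, Ibsp and Bglap. Of the 14 markers 12 were tested, and 10 of these 12 were highest in 4 months replicate 3 among the 4-month pools, with 8 over 2 times either other pool. Their summed RPKM was 133, 243 and 141 at PND2 and 206, 349 and 726 at 4 months. The most abundant was Acan, the large cartilage proteoglycan, at PND2 and Comp, a matrix protein of cartilage and tendon, at 4 months. The rise of the sum came from Comp, which made up most of it at 4 months. Comp had 6.95, 13.3 and 11.5 RPKM at PND2 and 179, 308 and 642 at 4 months (log2 fold change 4.99, adjusted p = 0.000333), a ratio of means of 35.6, and of 23.0 without 4 months replicate 3. Col2a1, the defining collagen of cartilage, had 1.52, 5.37 and 2.35 RPKM at PND2 and 0.464, 0.756 and 16.6 at 4 months, so the high value came from replicate 3 alone. Its log2 fold change was -0.48 (adjusted p = 0.793) and -2.01 without that library (adjusted p = 0.0437), while it was positive without PND2 replicate 2 or 4 months replicate 1 or 2. Snorc, a cartilage proteoglycan, had no reads at PND2 and 1.19, 0.524 and 3.64 RPKM at 4 months, at least 13.9-fold higher and at least 6.67-fold higher without replicate 3. It met the filter through the 4-month libraries alone.

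Between the ages the cartilage markers did not move as 1 group. Comp, Snorc and Ucma, a Gla protein of cartilage, were higher at 4 months, and Acan, Col9a1, Col9a2, Col11a1 and Hapln1 were lower. The median log2 fold change over the 12 was -0.52. Snorc met the filter through its 4-month libraries alone, so it had to differ and its place among the higher markers is no support. Acan fell from 81.4 ± 41.0 to 11.6 ± 4.64 RPKM (log2 fold change -2.77, adjusted p = 0.00188), and Col9a2 from 15.8 ± 4.04 to 0.785 ± 0.896 RPKM (-4.61, adjusted p = 0.00179). In Col9a2 replicate 3 was over 2 times either other 4-month pool, and the log2 fold change was -5.41 without it. The calls of Ucma and Hapln1 were each lost in 4 of the 6 fits with 1 library left out (adjusted p up to 0.0985 and 0.0770), and held for Ucma without PND2 replicate 1 or 4 months replicate 1 and for Hapln1 without PND2 replicate 3 or 4 months replicate 2. Matn1, a marker of mature cartilage, had reads in PND2 replicate 3 only (0.0512 RPKM), and Matn3 did not enter the test. The part of cartilage cells in the values of Spp1, Ibsp and Bglap was not tested. Col2a1, Snorc and Ucma were singled out after their values were seen.

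**Figure D4:**
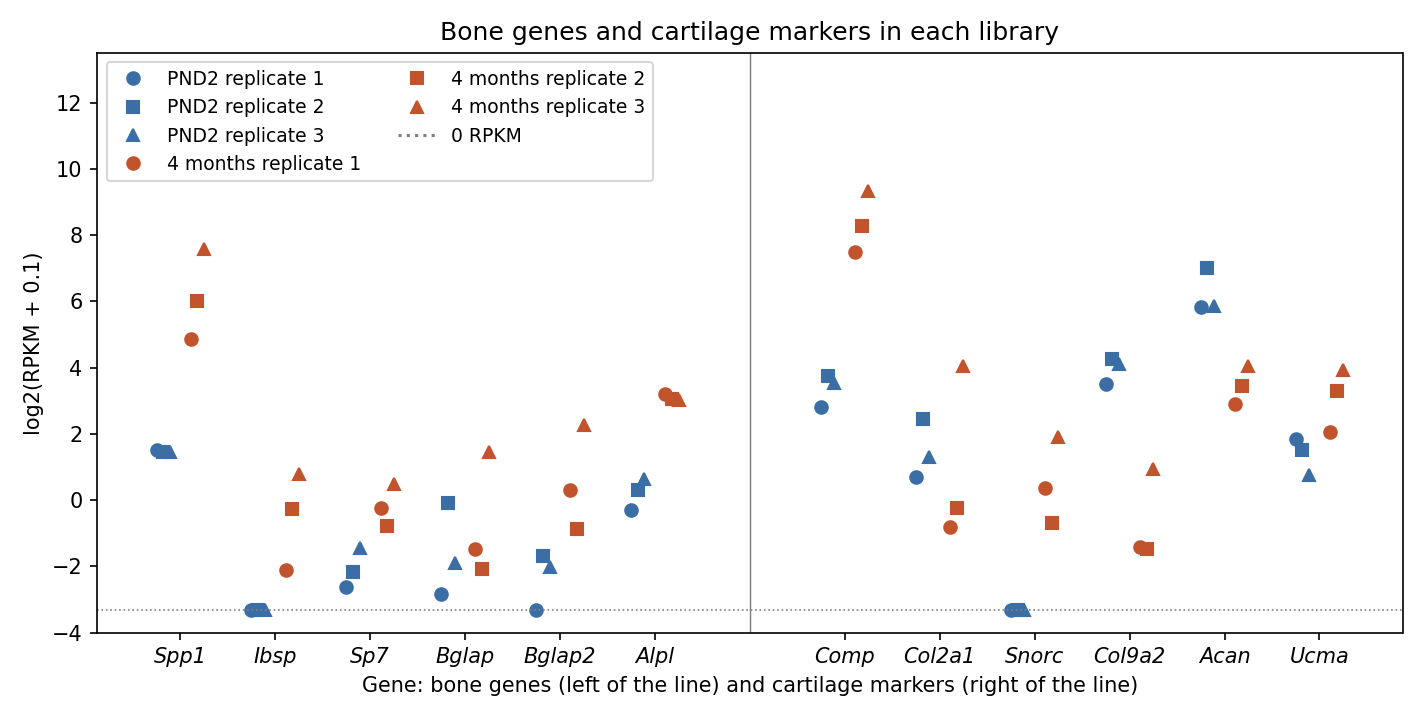
Each point is 1 library, with age by color and replicate by marker shape, on a vertical axis of log2(RPKM + 0.1), for 6 bone genes left of the line and 6 cartilage markers right of it, chosen after their values were seen; the dotted line is 0 RPKM. 4 months replicate 3 (orange triangles) is the highest 4-month pool in every gene shown except Alpl, most clearly for Col2a1 at 16.6 RPKM against 0.464 and 0.756.

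Spp1 and Ibsp lie in a cluster of acidic bone and tooth matrix genes on chromosome 5. Of the other cluster genes, Dspp, a dentin protein, had no reads in any library, and Mepe, an osteocyte protein, had 0.0205 RPKM in 4 months replicate 3 and none elsewhere. Dmp1, which regulates mineralization in osteocytes, did not exceed 0.0304 RPKM. The 2 flanking genes were both higher at 4 months: Sparcl1, an adhesion-modulating matrix protein, rose from 165 ± 33.9 to 539 ± 84.2 RPKM (log2 fold change 1.72, adjusted p = 0.000618), and Pkd2, a cation channel, went from 35.6 ± 3.26 to 46.4 ± 3.02 RPKM (0.38, adjusted p = 0.0251). Of the 7 genes of the cluster and its neighbors, 4 were tested and all 4 were higher. Ibsp met the filter through its 4-month libraries alone, so it had to differ and its place among the 4 is no support. The Pkd2 call was lost without PND2 replicate 1 or 3 or 4 months replicate 2 or 3 (adjusted p up to 0.0892).

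Other genes of osteoblasts and osteocytes did not move together. Of 19 such genes 13 were tested, 4 were higher, 3 were lower and 6 did not pass, with a median log2 fold change of 0.31. Omd, a keratan sulfate proteoglycan of bone, had 8.64, 2.46 and 2.22 RPKM at PND2 and 51.3, 40.0 and 39.4 at 4 months (log2 fold change 3.54, SE 0.47, adjusted p = 0.00162, and a log2 fold change of 4.15 without PND2 replicate 1). The ages were far apart, and here replicate 3 was the lowest of the 4-month pools. Phex, a peptidase that restrains mineral-binding peptides, rose from 0.658 ± 0.146 to 5.63 ± 1.34 RPKM (2.91, adjusted p = 0.000336), and Mmp13, the collagenase of late cartilage and bone, from 0.587 ± 0.0360 to 1.72 ± 0.335 RPKM (1.39, adjusted p = 0.00615). Bglap2 was the remaining gene of the 4. Those that fell were Tnn, a tenascin (-2.17, adjusted p = 0.0126), Col13a1, a transmembrane collagen (-2.17, adjusted p = 0.00128), and Cdh11, the osteoblast cadherin, from 101 ± 9.57 to 53.9 ± 4.76 RPKM (-0.91, adjusted p = 0.00102). Sost, an inhibitor of Wnt signaling secreted by osteocytes, was the most abundant of the list, with 335, 494 and 399 RPKM at PND2 and 615, 492 and 482 at 4 months, and its ages overlapped (0.38, adjusted p = 0.128).

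Partners and regulators of Runx2 gave little difference. Of 16 genes 15 were tested and 1 passed, with a median log2 fold change of 0.10. That gene was Runx3, a factor of the same family, which had 0.113, 0.177 and 0.198 RPKM at PND2 and 1.32, 1.49 and 2.35 at 4 months. The ages did not overlap (log2 fold change 2.77, SE 0.33, adjusted p = 0.00104). Atf4, a transcription factor that acts with Runx2 on Bglap, was the most abundant, at 172 ± 7.86 and 180 ± 13.4 RPKM (0.06, adjusted p = 0.672).

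Genes that handle phosphate, pyrophosphate and adenosine were mixed. Of 13 genes 12 were tested, 4 were higher, 2 were lower and 6 did not pass, with a median log2 fold change of 0.29. Besides Phex, the genes that were higher were Entpd1, an ectonucleotidase (log2 fold change 0.86, adjusted p = 0.00355), Xpr1, the phosphate exporter (0.96, adjusted p = 0.00268), and Enpp2, a lysophospholipase of the Enpp1 family (0.70, adjusted p = 0.0315). Lower were Nt5e (CD73), which makes adenosine from AMP, with 9.44, 3.97 and 4.81 RPKM at PND2 and 2.26, 3.32 and 2.45 at 4 months (-1.07, adjusted p = 0.0424), and the adenosine receptor Adora2a (-0.77, adjusted p = 0.0256). The calls of Enpp2, Nt5e and Adora2a were each lost in 5 of the 6 fits with 1 library left out, with adjusted p up to 0.0844, 0.115 and 0.0900, and held only without 4 months replicate 3, PND2 replicate 2 and PND2 replicate 1 respectively. Slc29a1, an adenosine transporter, was the most abundant of these genes, at 93.4 ± 20.0 and 120 ± 17.7 RPKM (0.37, adjusted p = 0.163). Abcc6, the transporter whose loss causes ectopic mineral, did not exceed 0.127 RPKM and was not tested.

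Mgp and Bglap need vitamin K-dependent carboxylation to work. Of 8 genes of the vitamin K cycle and other Gla proteins all were tested, 3 were higher, 2 were lower and 3 did not pass, with a median log2 fold change of 0.31. Gas6, a Gla protein that activates the TAM receptors, had 206, 207 and 252 RPKM at PND2 and 733, 601 and 728 at 4 months. This was more than any gap within an age, and Gas6 rose from 222 ± 26.2 to 687 ± 74.6 RPKM (log2 fold change 1.63, SE 0.13, adjusted p = 0.000221). Pros1 (protein S) rose from 30.2 ± 2.59 to 47.0 ± 1.17 RPKM (0.64, adjusted p = 0.00242). The carboxylase Ggcx went from 22.7 ± 4.70 to 29.2 ± 1.70 RPKM (0.38, adjusted p = 0.0990), and Vkorc1, which recycles vitamin K, from 68.6 ± 6.11 to 80.7 ± 9.69 RPKM (0.23, adjusted p = 0.181). The smaller differences of Aifm2 (0.44, adjusted p = 0.0420) and Vkorc1l1 (-0.38, adjusted p = 0.0249) lost their calls in 6 and 4 of the 6 fits with 1 library left out, with adjusted p up to 0.130 and 0.0839. Vkorc1l1 held without PND2 replicate 1 or 4 months replicate 2.

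Among other secreted inhibitors of mineralization or of bone-forming signals, 10 of the 11 genes measured were tested, 5 were higher, 2 were lower and 3 did not pass, with a median log2 fold change of 0.97. Ahsg (fetuin-A), the serum protein that keeps calcium phosphate in solution, had 239, 135 and 152 RPKM at PND2 and 48.7, 65.6 and 54.5 at 4 months (log2 fold change -1.60, SE 0.22, adjusted p = 0.00180). All 4-month pools were below all PND2 pools. Its relative Fetub went the other way, from 0.0402, 0.240 and 0.214 RPKM to 6.14, 3.47 and 5.38 RPKM (4.33, SE 0.42, adjusted p = 0.000419). Tnfrsf11b (osteoprotegerin), the decoy receptor that restrains osteoclasts, rose from 8.04 ± 2.66 to 25.2 ± 5.80 RPKM (1.67, adjusted p = 0.00381). The BMP antagonist Chrdl1 rose from 1.70 ± 0.374 to 11.1 ± 3.03 RPKM (2.62, adjusted p = 0.000410), and Bmp3, a BMP family member that opposes bone formation, from 5.03 ± 0.390 to 10.6 ± 1.29 RPKM (1.05, adjusted p = 0.00180). The remaining calls were of Sostdc1 (1.30, adjusted p = 0.0197) and Dkk1 (-1.28, adjusted p = 0.0400), both under 1 RPKM in every library. Dkk1 met the filter on low values through its PND2 libraries alone, so it had to differ and its place among the 2 lower genes adds nothing. It lost its call whichever library was left out (adjusted p up to 0.137), and Sostdc1 in 4 of 6 (up to 0.0658), all except those without PND2 replicate 1 or 4 months replicate 3.

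Receptors for Spp1 were mixed. Of 9 genes all were tested, 5 were higher, 1 was lower and 3 did not pass, with a median log2 fold change of 0.56. Itga8 had 160, 176 and 169 RPKM at PND2 and 635, 497 and 469 at 4 months (1.65, SE 0.13, adjusted p = 0.000215), and its partner Itgb1, the most abundant, was at 746 ± 25.9 and 711 ± 68.9 RPKM (adjusted p = 0.678). The others that rose were Itgb5 (1.26, adjusted p = 0.00137), Itgb3 (0.98, adjusted p = 0.00461), Itga9 (0.67, adjusted p = 0.00881) and Itga5 (0.56, adjusted p = 0.0135, and 0.0549 without PND2 replicate 3). Itga4 fell from 15.8 ± 4.87 to 3.74 ± 0.664 RPKM (-2.02, adjusted p = 0.00116).

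Macrophages and osteoclasts also make Spp1, and their markers were read beside it. Of 12 macrophage markers all were tested, 9 were higher at 4 months and none was lower, with a median log2 fold change of 1.05. Their summed RPKM was 421, 370 and 409 at PND2 and 1248, 1125 and 1184 at 4 months. Lyz2, the macrophage lysozyme and the most abundant marker at both ages, rose from 121 ± 12.3 to 595 ± 25.6 RPKM (2.30, adjusted p = 3.11e-05). Cd163, a scavenger receptor of resident macrophages, had the largest rise of the list, from 2.45 ± 1.37 to 13.0 ± 1.88 RPKM (2.47, adjusted p = 0.00186). The macrophage sums of the 4-month pools lay close together, unlike the Spp1 values of the same pools. Of 11 osteoclast genes 10 were tested, 5 were higher and 2 were lower, with a median log2 fold change of 1.11, and their summed RPKM was 118, 119 and 110 at PND2 and 81.5, 91.6 and 91.0 at 4 months. Mmp9 rose from 0.321 ± 0.250 to 3.76 ± 0.942 RPKM (3.32, adjusted p = 0.00146), Acp5 (TRAP) from 1.38 ± 0.280 to 11.3 ± 7.21 (2.79, adjusted p = 0.00222), and Tnfrsf11a (RANK) from 2.59 ± 0.671 to 8.21 ± 1.12 (1.65, adjusted p = 0.00183). The ratio of the 4-month to the PND2 mean was 11.7 for Mmp9 and 21.1 without PND2 replicate 3, and 8.23 for Acp5 and 5.22 without 4 months replicate 2. Atp6v0d2 (1.77, adjusted p = 0.0269) and Tnfsf11, which encodes RANKL (1.44, adjusted p = 0.0293), stayed under 1 RPKM and lost their calls without PND2 replicate 2 or 3 or 4 months replicate 1 (adjusted p up to 0.0814 and 0.0943), Tnfsf11 also without 4 months replicate 3. Tnfsf11 met the filter through its 4-month libraries alone, so it had to differ and its place among the 5 is no support. Ctsk, the bone-resorbing cathepsin and most abundant of the list, fell from 89.9 ± 4.14 to 51.8 ± 6.32 RPKM (-0.80, adjusted p = 0.00168), as did Nfatc1 (-0.88, adjusted p = 0.00406), which valve endothelium also expresses. Ctsk made up most of the summed RPKM at both ages, and its fall was larger than that of the sum. The fusion gene Dcstamp and the calcitonin receptor Calcr did not exceed 0.134 and 0.335 RPKM. The part of macrophages in the Spp1 difference was not tested.

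The labelled tissue was checked with markers of the cells an aortic valve dissection can hold. Valve interstitial markers were abundant at both ages, with Dcn at 1054 ± 60.0 and 3961 ± 506 RPKM (1.90, adjusted p = 0.000272). Of the 10 interstitial markers 2 (Dcn and Lum) were higher and 6 were lower at 4 months, with Vcan falling most (-1.55, adjusted p = 0.000539) and Col3a1, the most abundant at PND2, going from 1412 ± 193 to 824 ± 27.3 RPKM (-0.77, adjusted p = 0.00618). All 7 endothelial markers were lower, from Pecam1 (-0.49, adjusted p = 0.0439, over 0.05 in all fits with 1 library left out except that without PND2 replicate 2) to Tie1 (-1.58, adjusted p = 0.000210) and Emcn (-1.58, adjusted p = 0.00157). All 8 smooth muscle markers were higher, with Myh11 at 156 ± 38.6 and 1729 ± 451 RPKM (3.47, adjusted p = 0.000130). The most abundant, Acta2, had a log2 fold change of 1.36 (adjusted p = 0.0105, and 0.0555 without PND2 replicate 1). Mgp is a known product of arterial smooth muscle, and the part of smooth muscle in its difference was not tested.

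Markers of other tissues were present as well. The summed RPKM of 8 cardiomyocyte markers was 8068, 8583 and 10160 at PND2 and 4256, 6174 and 3992 at 4 months, with Myh6 the most abundant at 3335 ± 307 and 2164 ± 498 RPKM (-0.64, adjusted p = 0.0510, and 0.0142 without 4 months replicate 2). Of these 8, 4 were lower and none higher, namely Myh7 (-2.07, adjusted p = 0.00289), Tnnt2, Actn2 and Mybpc3, the last with a call lost in 4 of 6 fits with 1 library left out (adjusted p up to 0.0910, passing without PND2 replicate 1 or 4 months replicate 2). Adipocyte markers summed to 147, 63.8 and 78.2 at PND2 and 340, 1395 and 339 at 4 months. Cidec, a lipid droplet protein with no reads at PND2, was at least 760-fold higher at 4 months, and Lep (leptin), also with no reads at PND2, was at least 95.9-fold higher. Without 4 months replicate 2 these bounds were 424-fold and 53.6-fold. Adipoq, Plin1 and Cfd were the other adipocyte genes that rose, with Cfd at 217, 955 and 172 RPKM at 4 months and at most 0.0355 RPKM at PND2. Cidec, Lep, Plin1 and Cfd met the filter through the 4-month libraries alone and so had to differ. Fabp4, the most abundant at PND2, had 147, 63.7 and 77.9 RPKM, then 52.5, 183 and 69.1 RPKM. The adipocyte sum was highest in 4 months replicate 2, the macrophage and smooth muscle sums in replicate 1 and the cartilage sum in replicate 3.

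**Figure D5:**
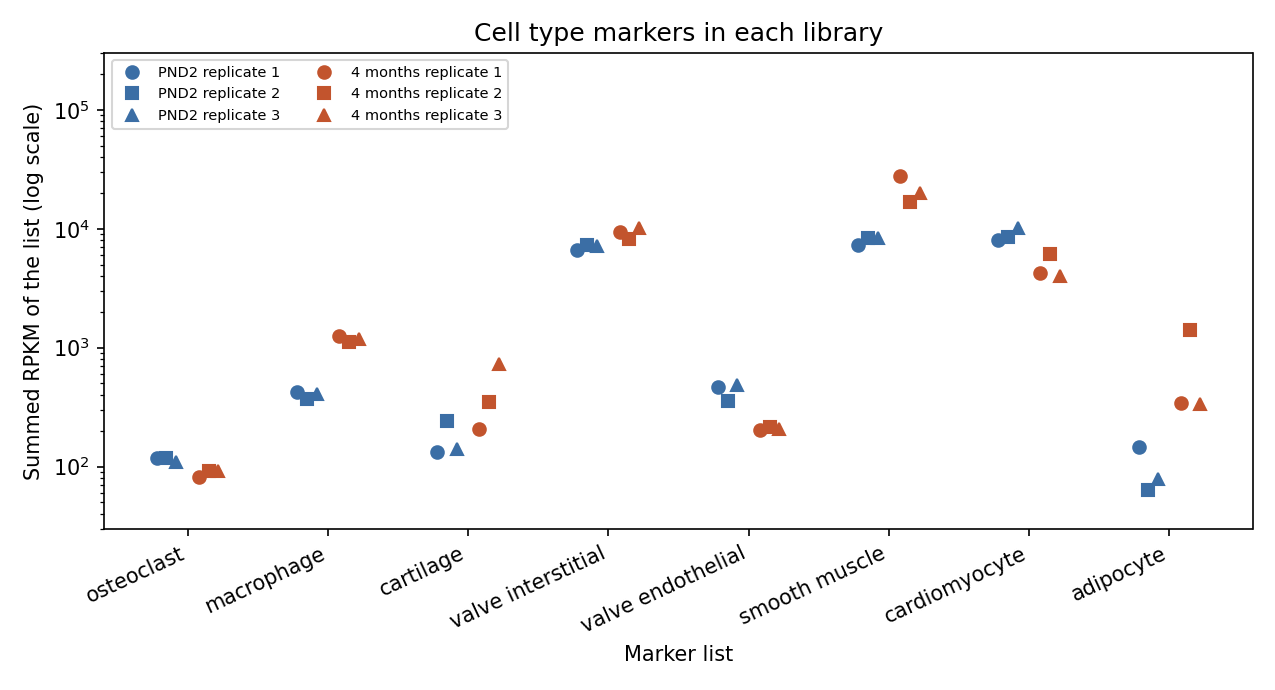
Each point is the summed RPKM of a marker list in 1 library, on a log axis, with age by color and replicate by marker shape. Cartilage markers reach 726 RPKM in 4 months replicate 3 against 206 and 349 in the other 4-month pools, while the macrophage sums of the 4-month pools lie close together. Most of the cartilage sum at 4 months is Comp, and its rise from PND2 came from that gene.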

How the data were processed

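RNA of 6 pooled aortic valve samples, 3 at PND2 and 3 at 4 months, was sequenced as paired reads from a stranded kit. Per the study's methods and processing notes, reads were quality-filtered, trimmed, mapped to mm10 (TopHat2 2.1.0) and summarized by easyRNASeq in R 3.2.2 over Ensembl annotation. The authors deposited RPKM values of 46983 genes and 448141 exon rows (387776 distinct exons), to which the 50-read minimum and 10-read floor of the study were not applied. Whether counting used strand, or counted a read at more than 1 gene, is not given in the sources used here, so overlapping genes and near-identical copies are uncertain. Each RPKM value times exonic length and library total gave a whole number of reads within 0.01 for 100% of values, which is the depth used here. Floors of 3 reads cover counting error only. The p-values measure only the spread between these pools.

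Genes reaching 0.1 RPKM in 3 libraries, and exons reaching 1 RPKM, were compared on log2(RPKM + 0.1) with limma 3.58.1 (trend, 2-sided, Benjamini-Hochberg over all tested) in R 4.3.3 (tables read by the data.table package, version 1.17.8). Fold changes on this scale understate those of low genes. Summaries were made in Python 3.11.15 with pandas 2.3.3 and numpy 2.4.6, permutation tests with scipy 1.17.1 and plots with matplotlib 3.10.9. Only the gene-level limma fit was tested on simulated data, with changes planted in genes above a minimum expected count.

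The genes and lists were chosen with earlier results of these data known. The 19 lists cover 4 roles of the 10 genes and 15 others: phosphate, pyrophosphate and adenosine handling, the vitamin K cycle, secreted inhibitors, Runx2 partners, osteoblast and osteocyte genes, the chromosome 5 bone matrix cluster, osteoclast genes, Spp1 receptors, and markers of macrophages, cartilage, valve interstitial and endothelial cells, smooth muscle, cardiomyocytes and adipocytes. Of 162 list genes, 161 were matched. All 10 genes are named, and of each list those with the highest mean or the largest rise or fall past the threshold, with the copies of Bglap and the cluster on chromosome 5. Of the genes this rule selects, 1 is not reported here. Others were chosen after their values were seen, mostly because at most 5 of a list passed in a direction. Alternatives were no filter, a filter at 1 RPKM, pseudocounts of 0.01 and 1, no trend, median and quantile scaling, an unequal-variance test per gene on the same values, filter and threshold, a floor of 10 reads, voom on the recovered reads, a replicate block, protein-coding genes only and each library left out.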

Additional observations from a re-analysis of the deposited data

How the results depend on the processing

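Of the 10 genes 9 passed the threshold, and 5 did with no filter on low values and 2 with an unequal-variance test per gene (8 at an adjusted p under 0.1). In the unequal-variance test Mgp (adjusted p = 0.0465) and Runx2 (0.0474) passed. Calls lost there were of Alpl (0.0515), Enpp1 (0.0553), Phospho1 (0.0646), Sp7 (0.0845), Ank (0.0887), Spp1 (0.0976) and Ibsp (0.187), with the same log2 fold changes. With no filter the calls of Mgp (adjusted p = 0.333), Runx2, Sp7 and Ibsp were lost, and the cause was not tested. With 1 library left out 6 to 8 passed. Of all 25903 genes tested 9273 passed, 3408 with the unequal-variance test (7430 under 0.1), 6238 of 46983 with no filter and 6447 to 8688 with 1 library left out. Exon calls of the 10 genes were 74, and 59 to 72 with 1 library left out. The Alpl to Enpp1 difference kept its direction in every alternative run, from 1.57 to 2.06 with 1 library left out. Ibsp was also not called with values floored at 10 reads (adjusted p = 0.196) or a pseudocount of 1 (0.0626). The log2 fold change of Bglap ran from -0.18 (without 4 months replicate 3) to 1.66 with 1 library left out. That of Itgb1 was 0.050 with median scaling and 0.15 with quantile normalization, against -0.07. That of Col2a1 was 0.0089 without PND2 replicate 2, 0.44 without 4 months replicate 1 and 0.14 without 4 months replicate 2, and -2.01 without 4 months replicate 3. That of Fabp4, -0.05, was 0.075 with median scaling, 0.022 with quantile normalization, 0.31 without PND2 replicate 1, 0.32 without 4 months replicate 1, 0.12 without 4 months replicate 3 and -0.58 without 4 months replicate 2. Over the named genes and the alternatives, 1286 fold changes kept their direction and side of the threshold, 197 no longer passed, 8 newly passed and 11 reversed. Counts of list genes stayed within 1.5 times in 463 cases and moved further in 77. Over all genes no pairing of the pools by replicate number was seen. Deviations from the age means correlated at 0.0439, -0.0608 and -0.160 for replicates 1, 2 and 3. Pairing in a subset of genes was not tested. With the replicate number as a block, 8 of the 10 genes, 71 exons and 7167 genes passed, the Alpl to Enpp1 difference had an exact permutation p of 0.25, and Runx2 had an adjusted p of 0.0793. At under 50 reads per library depth limits the precision. This holds for Bglap, for Sp7 at PND2 and in 4 months replicate 2, and for Ibsp except in 4 months replicate 3.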
